A study of Mus musculus with 22 samples.

Results

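The passage from early-G1 to mid-G1 was followed in cells that kept CTCF, by RNA polymerase II (PolII) ChIP-seq peak lists from 2 early-G1 and 3 mid-G1 control libraries. The members compared are all 452084 peaks of these 5 lists, merged into 139205 regions wherever peaks overlapped by at least 1 bp. The 18 PolII lists of the whole series gave 169903 regions by the same rule, and 4 further samples are input chromatin, 1 for each stage. All libraries come from G1E-ER4 cells, a subline of the GATA1-null mouse proerythroblast line G1E, in which both CTCF alleles were fused to AID-mCherry and which also carried an OsTiR-IRES-GFP transgene. Cells were held in prometaphase with 200 ng/ml nocodazole, released for 60 min (early-G1) or 120 min (mid-G1), and sorted for a 2N DNA content and for mCherry. Neither group received auxin, so both retained the tagged CTCF. The groups differ in time after release, but the input used for peak calling also changed with the stage, so stage and input cannot be told apart.

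As cells leave mitosis, PolII returns to the chromosomes, assembles at promoters, often pauses shortly after the transcription start site (TSS) and then moves through the gene body towards the 3′ end. A TSS peak therefore marks recruited or paused polymerase, while peaks across a gene body and behind its 3′ end mark polymerase in elongation and termination. In erythroid precursors the same hours cover the exit from mitosis and the preparation for the next S phase, for which E2F factors are known to control licensing and nucleotide synthesis genes.

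Each list gives, for each peak, a fold enrichment over the local background. Regions were ranked by it within each list, among the 19362 regions that had a peak in all 5 libraries (rank 1 is the strongest, and ties share a mean rank). A change is mid-G1 minus early-G1 in −log2 rank, so a value of 1 means that the rank number halved and a positive value means a stronger rank in mid-G1. The mean change is given with its standard error (SE) and with limma's p-value adjusted over all of these regions.

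Promoters that ranked lower and higher in mid-G1 are shown as sequence, because their changes were called. Each stretch is the part of the 300 bases around the PolII summit that holds no annotated exon, from the mm9 genome, read 5′ to 3′ along the strand of the gene. Capitals mark TATAAA (the TATA box word), CACGTG (an E-box), CCGGAAG (an ETS word), GGGCGG (an Sp1 and Klf word) or GCGGGAA (an E2F word), on either strand. The first 3 stretches lie before genes that ranked lower in mid-G1 and the last 2 before genes that ranked higher.
Mybl2, chr2:162880244-162880422, plus strand: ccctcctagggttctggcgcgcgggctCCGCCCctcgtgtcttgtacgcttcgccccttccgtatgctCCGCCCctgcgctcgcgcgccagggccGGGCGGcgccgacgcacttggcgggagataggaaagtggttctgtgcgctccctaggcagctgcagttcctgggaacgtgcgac
Tyms, chr5:30400158-30400246, minus strand: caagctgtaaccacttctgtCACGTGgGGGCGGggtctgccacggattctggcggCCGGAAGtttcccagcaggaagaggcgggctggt
Tsg101, chr7:54175340-54175524, minus strand: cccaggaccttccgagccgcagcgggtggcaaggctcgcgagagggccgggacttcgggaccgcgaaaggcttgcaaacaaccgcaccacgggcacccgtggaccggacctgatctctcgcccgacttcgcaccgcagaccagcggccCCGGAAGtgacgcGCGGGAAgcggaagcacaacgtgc
Sgk1, chr10:21714377-21714471, plus strand: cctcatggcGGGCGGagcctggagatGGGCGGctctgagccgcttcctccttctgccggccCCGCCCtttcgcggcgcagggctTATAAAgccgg
Zfp207, chr11:80196686-80196780, plus strand: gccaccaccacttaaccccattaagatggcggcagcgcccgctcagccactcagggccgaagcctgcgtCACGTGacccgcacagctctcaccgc

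The depth behind the lists differed, and it is given first because peak calling depends on it. A relative depth, recovered from the pileup and background behind each list, was 8.15 and 11.8 reads per kb of genome in the early-G1 libraries. It was 4.54, 10.2 and 9.42 reads per kb in the mid-G1 libraries, so mid-G1 replicate 1 was the shallowest of the 18 PolII libraries, which reached 13.3. Results that rest on detection are therefore given with and without that library. A short panel of marker genes was read beside the label. In it, 11 of 12 erythroid and progenitor genes had a TSS peak in all 5 libraries and Zfpm1 had one in 3. None of the 6 T cell, 4 B cell, 5 myeloid, 3 liver, 3 neuron and 3 fibroblast markers had one in any. In the longer list of globin and erythroid maturation genes, only 20 of 30 annotated genes had a TSS peak in any library, and 16 in all mid-G1 libraries. For hematopoietic progenitor regulators these counts were 16 of 19, and 15.

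PolII peaks of control cells covered less of the genome in each mid-G1 library than in either early-G1 library, but the difference did not pass the test. The early-G1 lists held 107213 and 103538 peaks over 66.7 and 73.3 Mb. The mid-G1 lists held 50594, 88496 and 102243 peaks over 22.7, 57.5 and 51.2 Mb. The groups did not overlap in either measure. Mid-G1 replicates 2 and 3 were deeper than early-G1 replicate 1 and shallower than early-G1 replicate 2. The part of depth in the difference was not tested. Covered bases differed by −0.78 on the log2 scale (exact two-sided permutation test over the libraries, p = 0.3), and by −0.37 without mid-G1 replicate 1. Peak number differed by −0.45 (exact p = 0.4), and by −0.15 without that library. With 2 libraries against 3 the smallest p this exact test can give is 0.1, so none of its results can pass 0.05. The auxin-treated libraries of the same stages overlapped, with 57.1 and 56.8 Mb in early-G1 and 55.2, 64.0 and 39.8 Mb in mid-G1, and with most peaks (107666) in mid-G1 replicate 2.

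**Figure D1:**
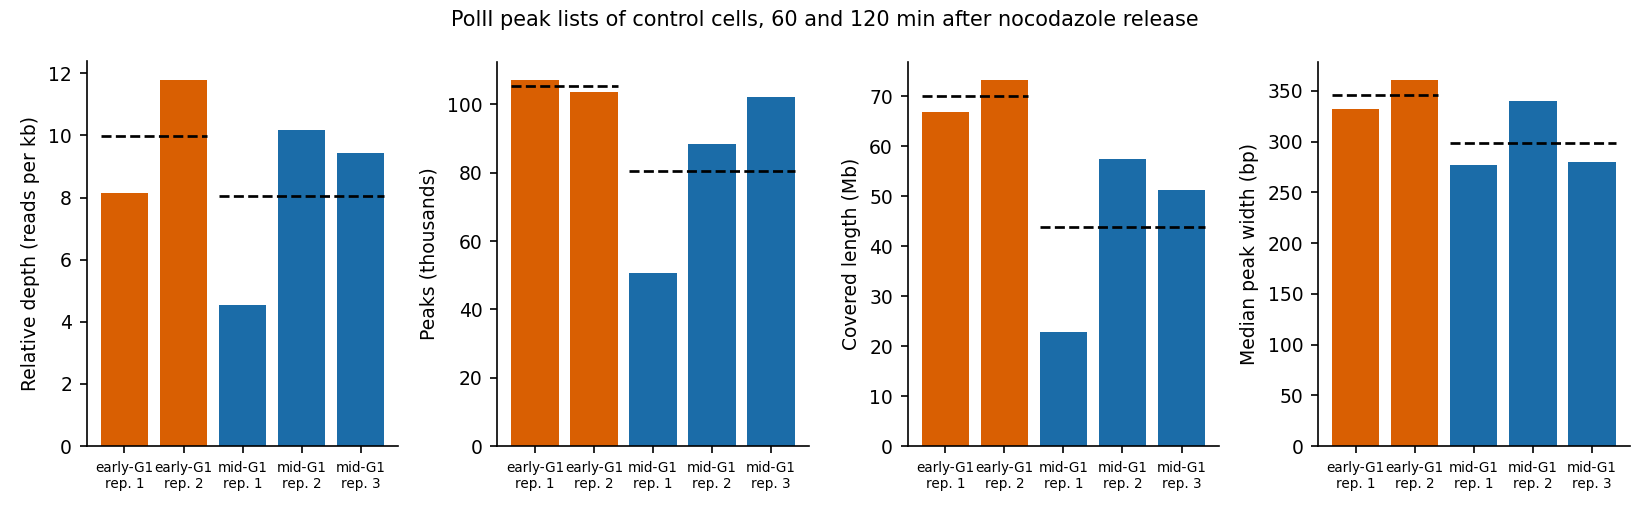
Relative depth in reads per kb, number of peaks (in units of 1000), covered length in Mb and median peak width in bp, with a bar for each of the 2 early-G1 and 3 mid-G1 control libraries and a dashed line at each group mean. Covered length lies at 66.7 and 73.3 Mb in early-G1 and between 22.7 and 57.5 Mb in mid-G1, with the shallow mid-G1 replicate 1 lowest.

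The share of peaks that held a TSS did not separate the stages. It was 10.2% and 10.6% in early-G1 and 16.7%, 11.5% and 10.6% in mid-G1, where the high value belongs to the shallow library. The difference of 2.50 percentage points (exact permutation p = 0.6) shrank to 0.631 without that library and became −1.40 when the same number of strongest peaks was taken from every list. Peaks had median widths of 332 and 361 bp in early-G1 and of 277, 340 and 280 bp in mid-G1, which overlap (log2 difference −0.22, exact permutation p = 0.3).

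Libraries of the same stage shared only slightly more covered sequence than libraries of different stages. The Jaccard index (shared over total covered bases) was 0.596 for the early-G1 pair and 0.347, 0.355 and 0.497 for the mid-G1 pairs, against 0.276 to 0.509 across stages. The mean of same-stage pairs exceeded that of different-stage pairs by 0.0288 (exact one-sided permutation p = 0.3). Of the 100 best-ranked regions, same-stage pairs shared 79 to 86 and different-stage pairs 73 to 79, and of the 1000 best-ranked regions they shared 704 to 815 and 657 to 708.

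Regions found at 1 stage only were mostly gene body regions of early-G1. Of the 139205 regions, 67005 had a peak in a single library and 19362 in all 5. Both early-G1 libraries and no mid-G1 library had a peak at 10741 regions (7.72%), and all 3 mid-G1 libraries and no early-G1 library had one at 516 (0.371%). Ignoring the shallow mid-G1 replicate 1 gave 11054 and 3601, so the count of mid-G1 regions rests on that library while the order of both counts does not. Gene bodies held 87.5% of the early-G1-only regions and 50.6% of the mid-G1-only regions, against 75.4% of all regions. Intergenic sequence held 46.3% of the mid-G1-only regions, against 10.1% of the early-G1-only regions and 15.8% of all.

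The genes that held most early-G1-only regions were Cnnm2 (40 regions, a magnesium transport gene), Ssbp3 (34, a partner of the LIM-domain cofactor Ldb1), Cnot6l (32, a deadenylase subunit), Nipbl (32, the cohesin loader) and Arid4b (30, a chromatin regulator). Of the far fewer mid-G1-only regions, Taok3, a kinase gene, held most (5). Gm20388 held 4 and Fgfr2 held 3, in genes annotated as 4435 and 3009 kb long. Such annotated lengths enter the positions that follow. In genes of 100 kb or more, the 2340 early-G1-only regions lay at a median of 69.9 kb from the TSS, close to the 72.8 kb of all regions in such genes. The 72 mid-G1-only regions in such genes lay at a median of 134 kb, and 63.9% of them were in the distal part of the gene beyond its midpoint, against 47.2% of the early-G1-only and 47.4% of all regions. These positions are a description with no test.

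TSS peaks themselves were seldom specific to a stage. Of 22208 coding genes, 8502 had a TSS peak in all 5 libraries and 12765 in none. Only 25 genes had one in both early-G1 libraries and no mid-G1 library, and 6 had one in all mid-G1 and no early-G1 libraries (Atp13a2, Gca, Klrg2, Slfn10-ps, Ugt1a6a and Ugt1a6b, named after their values were seen). Ignoring mid-G1 replicate 1, the counts were 27 and 34.

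The best-ranked stage-only regions are given with ranks counted over all regions of a library, of which there were 77111 and 80628 in early-G1 and 25199, 60883 and 65150 in mid-G1. In early-G1 they were an intron of Dleu2 (chr14:62275690-62276066, ranks 9481 and 9933.5), an intergenic region 25455 bp from Apold1 (chr6:134905219-134906564, ranks 9155 and 10494) and the TSS of Slc2a4, a glucose transporter gene (chr11:69761426-69762033, ranks 10538 and 11010). In mid-G1 a neighbouring pair of intergenic regions lay 17560 and 15892 bp from Serpinb9d, at chr13:33302388-33309142 with ranks 1525, 2957.5 and 12954 and at chr13:33300720-33302289 with ranks 10867, 7195 and 11137. The remaining mid-G1 region lay 8779 bp from Chmp6 (chr11:119761644-119765976, ranks 5564.5, 7759.5 and 15190). The first Serpinb9d region thus ranked well in mid-G1 replicates 1 and 2 and much lower in replicate 3.

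Long gene bodies of control cells were less covered in each mid-G1 library than in either early-G1 library, but the difference did not pass the test. It was measured from 500 bp after the TSS in 6286 coding genes longer than 1 kb with a TSS peak in all 5 libraries. In the 479 genes of 100 kb or more, peaks covered a median of 1.47% and 1.64% of the body in early-G1 and 0.184%, 1.02% and 0.789% in mid-G1. The groups did not overlap, with a difference of −0.893 percentage points (exact permutation p = 0.2), −0.652 without mid-G1 replicate 1 and −0.297 for equal numbers of strongest peaks. In auxin-treated cells the stages overlapped, at 1.02% and 1.06% in early-G1 and 0.995%, 1.43% and 0.454% in mid-G1. In the 1720 genes of 1 to 10 kb, peaks covered 35.3% and 41.1% in early-G1 and 9.53%, 33.5% and 35.4% in mid-G1, so in the shortest genes mid-G1 replicate 3 reached the early-G1 level. Over the 5 kb after the gene end, in the 2987 genes with no other gene there, coverage was 33.9% and 36.9% in early-G1 and 14.5%, 32.0% and 29.5% in mid-G1 (difference −10.1 percentage points, exact permutation p = 0.3, and −4.63 without mid-G1 replicate 1).

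Pooled over long genes, more of the mid-G1 coverage lay towards the 3′ end. The ratio of coverage in the distal part of the body (beyond the midpoint) to that in the proximal part was 0.911 and 0.836 in early-G1 and 1.20, 1.04 and 1.08 in mid-G1, over the genes of 100 kb or more. Every mid-G1 library lay above both early-G1 libraries and above 1. The ratio sums covered bases over all these genes, so genes with many covered bases weigh most. A ratio that weighs genes equally was not tested, so the values above 1 are given for summed bases only. The log2 difference of 0.34 reached p = 0.1, the smallest that the exact permutation test can give with these 5 libraries, and was 0.28 without mid-G1 replicate 1. The ratio is taken within each library, and its highest value was in the shallow library. With each gene weighed equally, the first 20th part of the gene was covered to 9.05% and 10.4% in early-G1. In mid-G1 it was covered to 2.57%, 7.09% and 6.32%. The last 20th part was covered to 8.77% and 8.44% in early-G1 against 2.49%, 9.05% and 6.79% in mid-G1. The groups thus overlapped at the gene end and not behind the TSS. Inside these ends, the 2nd part was covered to 7.00% and 8.03% in early-G1 and to 1.13%, 4.74% and 3.91% in mid-G1. The 19th part was covered to 6.06% and 5.71% against 1.13%, 4.67% and 3.49%, so in mid-G1 it did not stand clearly above the 2nd.

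The same ratio was measured in libraries that do not enter the comparison, the auxin-treated cells of the same stages, from which CTCF had been depleted. It was 0.778 and 0.737 in early-G1 and 1.05, 1.01 and 1.04 in mid-G1, again without overlap (log2 difference 0.45, exact permutation p = 0.1, the smallest possible). With control and auxin-treated libraries permuted within treatment, the difference was 0.40 with an exact permutation p = 0.01, the smallest of 100 arrangements, and 0.05 after Benjamini-Hochberg adjustment over 5 length classes. This joint test was chosen after seeing the data. Late-G1 controls, 240 min after release, had ratios of 1.03 and 0.994, between the early-G1 and the mid-G1 control values. The genes of 50 to 100 kb had the opposite order, 1.16 and 1.14 in early-G1 against 0.957, 1.06 and 1.01 in mid-G1 (log2 difference −0.19, exact permutation p = 0.1; jointly −0.17, exact permutation p = 0.02 and 0.05 adjusted). In the 3 shorter classes the joint exact permutation p was 0.81, 0.54 and 0.49.

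**Figure D2:**
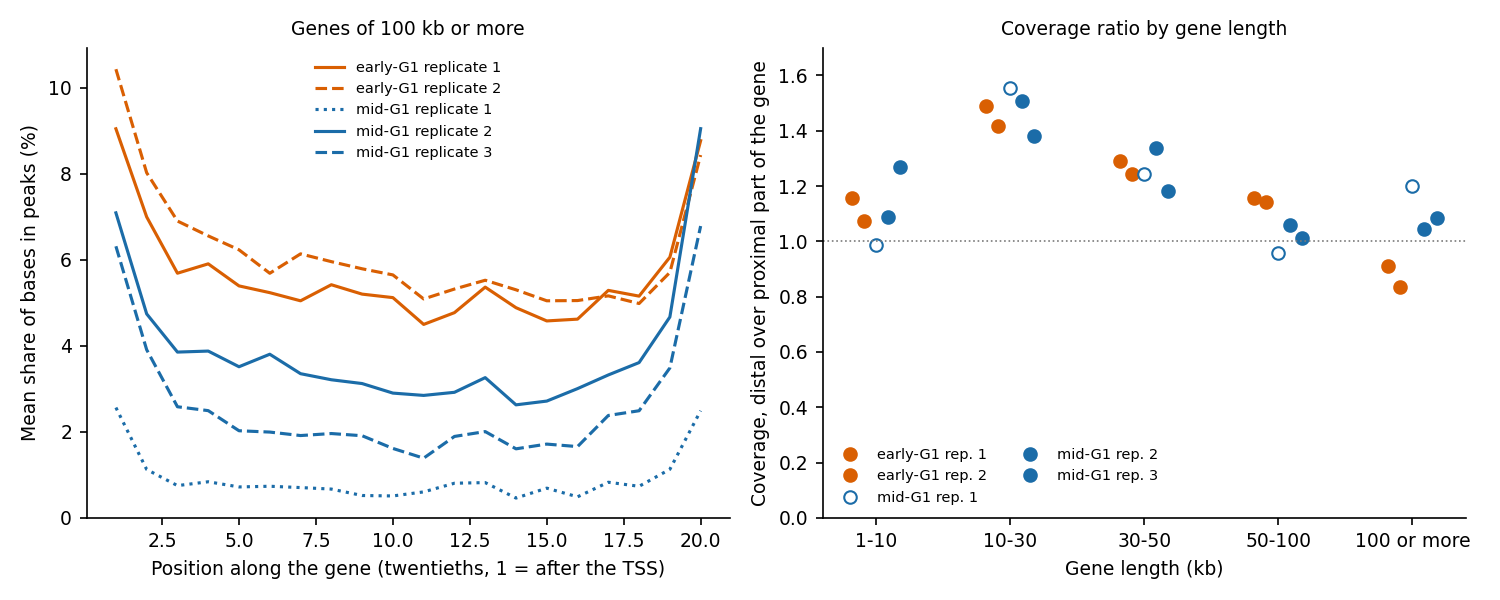
Left, mean percentage of bases in peaks along genes of 100 kb or more in 20 equal parts from the TSS to the gene end, with a line for each of the 2 early-G1 and 3 mid-G1 control libraries, and right, the ratio of distal to proximal coverage by gene length in kb, with a point for each library and mid-G1 replicate 1 open. In the longest class the ratio, summed over genes, lies at 0.836 and 0.911 in early-G1 and between 1.04 and 1.20 in mid-G1.

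Single long genes were compared in the same way. Of the 479 genes, 233 had lower coverage in every mid-G1 library than in either early-G1 library, 4 had higher coverage and 242 overlapped. Over all 6286 genes this held for 2673 (42.5%) and 59 (0.939%), and the share among long genes is read against that. Without mid-G1 replicate 1 the counts for long genes were 234 lower and 60 higher, so the near absence of higher genes rests on the shallow library. In auxin-treated cells 114 of the 479 genes were lower, 53 higher and 312 overlapped, and 105 of the 233 were also lower there.

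Ssbp3 (chr4:106583306-106722299) had the largest loss among those that did not overlap. Its body was covered to 48.8% and 47.0% in early-G1 and to 2.22%, 7.97% and 14.2% in mid-G1. In the auxin-treated cells the values were 32.6% and 32.7% against 12.3%, 18.4% and 2.85%. The stages did not overlap in either treatment, and in late-G1 control cells the coverage was 14.4% and 28.5%. Whsc1l1, which encodes an H3K36 methyltransferase (chr8:26712073-26830139), went from 37.7% and 48.4% to 0.906%, 6.47% and 8.29%. The highest mid-G1 value of this gene was far below the lowest early-G1 value.

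The 3 genes with the largest gain among the 4 that were higher in all mid-G1 libraries had little coverage at either stage. Hsd17b12, a fatty acid elongation gene (chr2:93872846-93998121), had 0% and 0.0393% in early-G1 and 0.130%, 1.72% and 0.545% in mid-G1. Btbd9 (chr17:30352469-30713394) had 0.0891% and 0.240% against 0.292%, 0.682% and 0.863%. Stxbp4 (chr11:90337806-90499398) had no body peak in early-G1 and 0.101%, 0.196% and 0.118% in mid-G1. Among the 60 genes higher without the shallow mid-G1 replicate 1 were better covered ones, named after their values were seen. Prkar2b, a protein kinase A subunit gene, had 21.1% and 19.8% in early-G1 and 11.03%, 45.5% and 24.1% in mid-G1, and Ptpre, a phosphatase gene, had 23.6% and 25.2% against 13.4%, 45.5% and 25.7%. Fut8, a fucosyltransferase gene, had 4.60% and 4.60% against 4.19%, 32.5% and 5.20%. In these genes mid-G1 replicate 2 stood far above the other mid-G1 libraries.

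The relative strength of regions was compared in the 19362 regions with a peak in all 5 libraries, of which 43.8% held a coding TSS. In limma, 9 regions rose in rank from early-G1 to mid-G1 (0.0465%) and 11 fell (0.0568%), at an adjusted p under 0.05. At an unadjusted p under 0.05 the counts were 1332 and 1520. The ranks of both stages did not overlap, without regard to the test, at 3251 regions higher in mid-G1 (16.8%) and 3329 lower (17.2%). In simulated data for these 5 libraries, 200 regions were changed 4-fold in fold enrichment and then ranked. Of these, 80 (40%) were given back, with 9 false calls. In this simulation many changes of that size were thus not called, and some calls were false. Apart from the added changes, each region had the same mean and spread in all 5 libraries. Differences in depth or input were thus not simulated. Calls also rested on single libraries. The limma fit made 0 calls without early-G1 replicate 1 (unadjusted p under 0.05 at 640 regions higher and 839 lower), without early-G1 replicate 2 (628 and 812) or without mid-G1 replicate 2 (1362 and 1482). It called 22 higher and 19 lower without the shallow mid-G1 replicate 1, and 30 and 14 without mid-G1 replicate 3.

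A fit that takes the spread from all 14 post-mitotic libraries called more. It tested 16699 regions and called 193 higher (1.16%) and 263 lower (1.57%) between the same 2 control groups. The 5 auxin-treated libraries of the same stages, fitted alone over 17668 regions, gave 251 higher (1.42%) and 297 lower (1.68%). All 9 regions that rose and all 11 that fell in the control libraries had a change of the same sign in the auxin-treated libraries, and 6 and 7 of them were also called there. Of the regions whose ranks did not overlap, 84.2% of those higher and 83.5% of those lower kept the sign, against 70.6% and 71.2% of all tested regions. Across the 17668 regions the control and auxin-treated changes had a Spearman correlation of 0.606. The PolII libraries are separate, but both treatments share the stage inputs, and regions are not independent replicates.

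**Figure D3:**
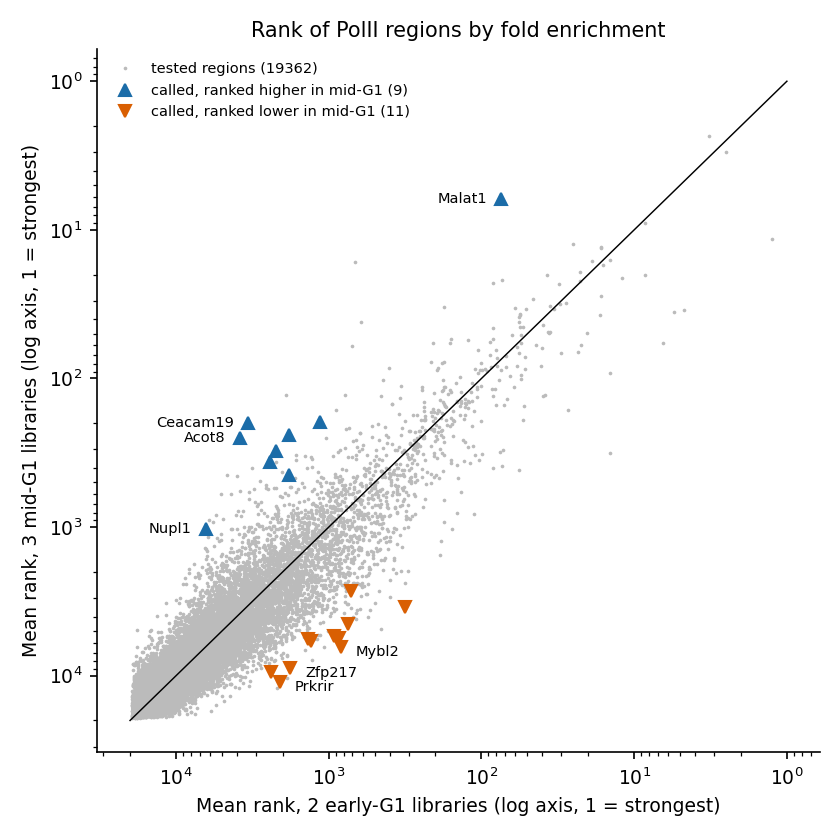
Mean rank over the 3 mid-G1 libraries against mean rank over the 2 early-G1 libraries for the 19362 tested regions, both on logarithmic axes with rank 1 as the strongest, with the 9 regions that rose and the 11 that fell in limma marked. Malat1 lies at the strong end of both axes, and Mybl2 lies where early-G1 ranks are strong and mid-G1 ranks weak.

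Among the regions that rose, Malat1 ended as one of the strongest tested regions. The region (chr19:5792955-5804919) covers the start of Malat1, an abundant nuclear noncoding RNA. It ranked 57 and 91 in early-G1 and 6.5, 7 and 5 in mid-G1, with fold enrichments of 89.6 and 72.2 against 130, 112 and 119. The change was 3.56 ± 0.28 (SE; limma, adjusted p = 0.0421). Ranks by −log10 p gave 1.84. In auxin-treated cells its change was 1.75 (limma, adjusted p = 0.194), from early-G1 ranks of 19 and 9.5.

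Sgk1, a serum- and glucocorticoid-induced kinase gene (chr10:21713594-21715010), ranked 2155 and 1511 in early-G1 and 230, 232.5 and 263 in mid-G1. Its change was 2.90 ± 0.22 (limma, adjusted p = 0.0421), and 2.49 in auxin-treated cells (limma, adjusted p = 0.0231). This is the promoter printed above with a TATAAA word close to its 3′ end. The mid-G1 ranks lie close together and far from both early-G1 ranks.

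Ribosomal protein promoters were also among those that rose. Rps10, of the small subunit (chr17:27766155-27772646), ranked 2336.5 and 2489 in early-G1 and 333.5, 356 and 402 in mid-G1, a change of 2.73 ± 0.18 (limma, adjusted p = 0.0421). The region at the main start of Rpl23, of the large subunit (chr11:97641143-97644874), ranked 1119 and 1157 against 228, 178 and 186.5, a change of 2.53 ± 0.20 (limma, adjusted p = 0.0421). The Rpl23 change was 0.57 with ranks by −log10 p and 0.011 with peaks within 1 kb merged, where the region is drawn differently, and that of Rps10 was 1.35 with ranks by −log10 p. Both also rose in auxin-treated cells, by 3.09 and 2.94 (limma, adjusted p = 0.0167 and 0.0276).

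The other regions that rose were of mixed kinds. The largest change, 4.18 ± 0.40 (limma, adjusted p = 0.0471), was at a region in the body of Ceacam19 (chr7:20462151-20463537), 9777 bp from its TSS, which ranked 3570 and 3168 in early-G1 and 179, 303.5 and 117 in mid-G1. The shared promoter of Acot8, a peroxisomal thioesterase gene, and Zswim3 (chr2:164630008-164632133) ranked 3337 and 4242 against 187, 264 and 303, a change of 3.93 ± 0.27, which was 1.57 with ranks by −log10 p. Zfp207, which encodes a spindle checkpoint protein (chr11:80194780-80204626), ranked 1800 and 2639 against 277.5, 276.5 and 368.5. Its promoter holds the CACGTG word printed above. Nupl1, a nucleoporin gene (chr14:60868943-60871737), ranked 6115 and 6648.5 against 900.5, 1279 and 913.5, and an intergenic region 219 bp from the TSS of Cyb5 ranked 1728.5 and 1922 against 466, 424 and 445. At none of these did the stages overlap, but the Cyb5 change of 2.04 was 0.65 in auxin-treated cells (limma, adjusted p = 0.676).

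Among the regions that fell, Mybl2 and Tyms belong to genes of the cell cycle. Mybl2, which encodes the B-Myb factor (chr2:162879376-162887759), ranked 851 and 816 in early-G1 and 5857, 8399 and 5068 in mid-G1, a change of −2.92 ± 0.26 (limma, adjusted p = 0.0421). Tyms, the thymidylate synthase gene (chr5:30397811-30400681), ranked 641 and 1082.5 against 5691.5, 5725 and 5383, a change of −2.75 ± 0.26 (limma, adjusted p = 0.0471). The Mybl2 change was −0.38 without early-G1 replicate 2 and −0.92 with peaks within 1 kb merged, settings in which its region is redrawn. Their promoters, printed above, both hold GGGCGG words, and that of Tyms also an E-box and an ETS word. In auxin-treated cells Mybl2 changed by −2.62 (limma, adjusted p = 0.0144) and Tyms by −2.30 (limma, adjusted p = 0.0729).

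A further 8 regions that fell had changes from −2.57 to −1.91. Tsg101, an ESCRT subunit gene (chr7:54174812-54176629), ranked 774.5 and 720.5 in early-G1 and 3562, 5157.5 and 4767.5 in mid-G1, and its promoter holds an ETS and an E2F word. Trp53inp1, a p53-induced gene (chr4:11081757-11084313), ranked 715 and 720.5 against 2591.5, 2684.5 and 2795.5. Prkrir (chr7:105850392-105852589) ranked 1693 and 2461 against 10878, 12264 and 10088, and Arpc5, of the actin-nucleating Arp2/3 complex (chr1:154613552-154615052), ranked 2167.5 and 2581 against 10440, 9457 and 8518. Both thus moved far down the list. Atp5g3, an ATP synthase subunit gene (chr2:73742590-73750650), ranked 1321.5 and 1288 against 4981.5, 6854 and 5574, but its change was 0.14 without mid-G1 replicate 2, when its region is redrawn. Tm9sf3 (chr19:41337240-41339682) ranked 1416.5 and 1324 against 4981.5, 6580.5 and 5380.5, and Zfp961 (chr8:74474484-74475321) 1068 and 792.5 against 6418, 5109.5 and 4779.5. The last of these regions lay 1188 bp from the TSS of Zfp217 (chr2:169974791-169977398) and ranked 1997 and 1573 against 8983, 8789 and 9040.5, a change of −2.33 that was −1.01 with peaks within 1 kb merged.

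**Figure D4:**
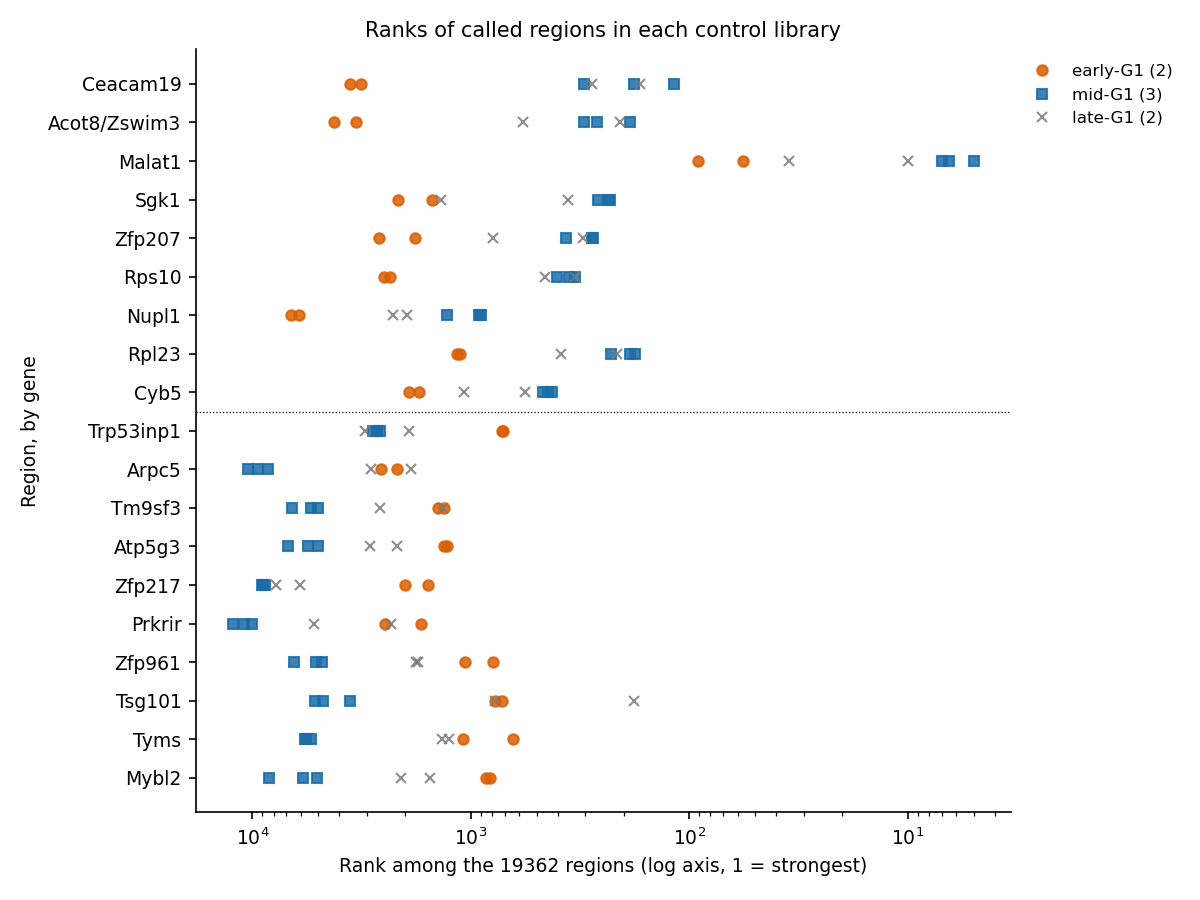
Rank of regions that passed limma's test, with a point for each of the 2 early-G1, 3 mid-G1 and 2 late-G1 control libraries, on a logarithmic axis with rank 1 as the strongest. The 9 regions that rose lie above the dotted line and 10 that fell below it, and for none of them do the early-G1 and mid-G1 ranks overlap.

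Ranks by −log10 p also gave smaller changes of 1.79 at Sgk1, 1.46 at Zfp207, −1.54 at Tsg101 and −1.35 at Atp5g3 and at Tm9sf3. The threshold fell in a dense run of values. Regions just outside it had an adjusted p of 0.050 in limma and changes as large as those inside. They included Terf1, a telomere-binding protein gene (ranks 821 and 874 against 8790, 5009 and 5248, change −2.86), Krcc1 (1.75), Hddc2 (2.03), the shared promoters of Dtx3l and Parp9 (2.11) and of Rnf25 and Stk36 (−2.57), and Samd14 (2.09).

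Genes of replication licensing and S-phase entry had the lowest median of the 22 gene lists. All 31 had a tested TSS region, of which 17 ranked lower in every mid-G1 library and none higher, against 17.2% and 16.8% of all regions. The median change was −1.02, against 0.0083 over all tested regions and −0.038 over those with a coding TSS, and only 2 changes were above 0. Tyms alone was called in the 5 control libraries. The 14-library fit called 5 lower and none higher, and the auxin-treated libraries gave 7 and none with a median of −0.82. The lists were chosen with earlier results of these data known, and these counts carry no test.

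Cdc6, Cdc45 and Mcm3 started among the strongest tested regions. Cdc6, which loads the replicative helicase, ranked 134.5 and 153 in early-G1 and 485, 1054 and 871.5 in mid-G1. Cdc45, part of the active helicase, ranked 450.5 and 482 against 2566.5, 3824.5 and 1717. Mcm3, a helicase subunit gene, ranked 436 and 771.5 against 3336, 2366 and 1849 (change −2.08; 14-library limma fit, adjusted p = 0.00877). Mcm2 ranked 2106.5 and 1257 against 6617, 6448 and 3358 (−1.69; 14-library limma fit, adjusted p = 0.0313). The groups did not overlap for any of these 4, while for Pcna, the sliding clamp gene, they did (5302.5 and 4013.5 against 5938, 2957 and 6843). These 5 genes were named after their values were seen.

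In the other cell cycle lists the median change was below that of all tested regions, and 16.8% of all regions ranked higher and 17.2% lower. Of 26 mitotic machinery regions, 13 ranked lower in every mid-G1 library (50%) and none higher (median −0.41), and none was called in limma on the 5 libraries. Top2a, topoisomerase II, ranked 715 and 386 in early-G1 and 4278, 6518.5 and 1329.5 in mid-G1. Nusap1, a spindle protein gene that shares its region with Oip5, ranked 1693 and 1257 against 2015.5, 5540 and 4790.5. Of 25 regions of G1 cyclins, kinases and E2F-Rb genes, 7 ranked lower (28%) and 2 higher (8%, median −0.42). Cdc25a, the phosphatase that activates Cdk2, ranked 518.5 and 614 against 4369.5, 1636 and 2500, and Ccne2, cyclin E2, ranked 1269.5 and 1257 against 4369.5, 4042 and 2261.5.

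Replication-dependent histone genes often shared a region. Their 38 genes with a tested TSS lay in 22 regions, of which 10 ranked lower in every mid-G1 library (45.5%) and 4 higher (18.2%, near the 16.8% of all regions), with a median of −0.66 and none called. Hist1h4d was among the strongest tested regions in early-G1, at ranks 9 and 4, and ranked 40, 82 and 50 in mid-G1. Its change was −3.19 (limma, adjusted p = 0.0605), with fold enrichments of 120 and 101 against 89.3, 75.6 and 94.7. Near rank 1 a few places make a large change on this scale. Hist1h2bm ranked 32 and 22 against 200, 67.5 and 218. Copies of these genes are nearly identical, so reads and peaks assigned to a single copy are uncertain.

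The median change was above 0 in both ribosome lists. Their shares stand beside those of all regions with a coding TSS, of which 15.0% ranked higher and 19.2% lower. Of 70 regions of cytosolic ribosomal protein genes, 24 ranked higher in every mid-G1 library (34.3%) and 10 lower (14.3%, median 0.30), with Rps10 called. Rpl23 counts here by its better-ranked region (chr11:97635491-97641087), which holds other annotated starts and overlapped between the stages. The median was 0.31 over 27 ribosome biogenesis regions (22.2% higher, 7.41% lower). Regions at subunit genes of RNA polymerase I moved in opposite directions. Polr1b, the second subunit gene, ranked 8627 and 8722.5 in early-G1 and 1797, 2514.5 and 2335 in mid-G1 (1.98, limma adjusted p = 0.050). The region of Polr1a, the largest subunit gene, also holds a TSS of Ptcd3. It ranked 1050 and 487.5 against 1893, 2674.5 and 3504 (−1.87), which cannot be credited to Polr1a alone.

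Glycolysis and glucose uptake genes had 5 of 18 regions higher (27.8%) and 2 lower (11.1%, median 0.24). Among all regions with a coding TSS, 15.0% ranked higher and 19.2% lower. Gpi1, the second enzyme of glycolysis, ranked 5702.5 and 6611.5 in early-G1 and 1659, 1108 and 721 in mid-G1, and Slc2a3, a glucose transporter gene, ranked 3278 and 2308.5 against 742.5, 372 and 930. Cholesterol synthesis genes had the same counts over 18 regions (median 0.24). Hsd17b7, an enzyme gene of that pathway, ranked 368 and 510.5 against 1386, 1676 and 2789 (−2.10). Heat shock and chaperone genes had 6 of 22 regions higher (27.3%) and 1 lower (4.55%, median 0.27). The shared promoter of Hspd1 and Hspe1, the mitochondrial chaperonin pair, ranked 2751 and 2986 against 893, 1094 and 982 (1.54, limma adjusted p = 0.0512).

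Immediate early genes were near the background as a list, which was 15.0% higher and 19.2% lower over all regions with a coding TSS. Of 21 regions, 3 ranked higher in every mid-G1 library and 3 lower (14.3% each), with a median of −0.017 and none called on the 5 libraries. Id1, an inhibitor of basic helix-loop-helix factors, ranked 764 and 642.5 in early-G1 and 42, 96 and 43 in mid-G1, with fold enrichments of 43.6 and 42.2 against 85.3, 70.7 and 95.5 (3.65 ± 0.40; limma, adjusted p = 0.050). Gadd45b, a stress-response gene, ranked 93 and 74 against 253, 365 and 579 (−2.18; limma, adjusted p = 0.0903). In the 14-library limma fit both passed, with adjusted p = 0.00496 and 0.00877. Fos, Egr1 and Myc, named after their values were seen, overlapped between the stages.

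No erythroid or progenitor gene was called on the 5 libraries. The lists are read against all regions with a coding TSS, of which 15.0% ranked higher and 19.2% lower. Of 15 regions of hematopoietic progenitor regulators, 4 ranked higher in every mid-G1 library (26.7%) and 1 lower (6.67%, median 0.021). The region of Lyl1, a helix-loop-helix factor gene, also holds a TSS of Nfix. It ranked 331 and 582 in early-G1 and 237.5, 108.5 and 48.5 in mid-G1. Gfi1b, a repressor gene, ranked 3394.5 and 4538.5 against 1797, 1199.5 and 1364.5. Of 16 globin and erythroid maturation regions, 2 ranked higher (12.5%) and 6 lower (37.5%, median −0.27). Tfrc, the transferrin receptor gene, ranked 106.5 and 119 against 315.5, 501 and 1642, and Trim10 ranked 4306.5 and 3478.5 against 6887, 9474.5 and 6728.5. Heme and iron genes had 2 of 19 regions higher and 3 lower (median 0.062), and Abcb10, a mitochondrial heme-pathway transporter gene, ranked 3614.5 and 2124 against 1147.5, 1970 and 1054.

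No gene of the transcription and RNA machinery lists was called on the 5 libraries. Of 58 regions of PolII, general factor and Mediator genes, 4 ranked higher (6.90%) and 15 lower (25.9%, median −0.17), against 15.0% and 19.2% of all regions with a coding TSS. Gtf2f1, a TFIIF subunit gene, ranked 59.5 and 53.5 in early-G1 and 201, 354 and 683 in mid-G1, while Taf13, a TFIID subunit gene, ranked 793 and 1004 against 102, 139 and 247. Of 30 splicing regulator regions, 1 ranked higher (3.33%) and 10 lower (33.3%, median −0.35). Srsf4 ranked 373 and 694.5 against 2111.5, 5940.5 and 2866.5, and Srsf3 ranked 112 and 85 against 226, 293 and 443. Of 14 small nucleolar RNA host regions, 3 ranked higher and none lower (median −0.031). The Snhg3 region, which also holds a TSS of the coding gene Rcc1, ranked 325 and 348 against 133, 104 and 102.5. The Snhg7 region, which also holds a TSS of Fam69b, ranked 504.5 and 311.5 against 260, 285 and 193.5.

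CTCF and cohesin genes had 1 of 13 regions higher (7.69%) and 3 lower (23.1%, median −0.35). Over all regions with a coding TSS the shares were 15.0% and 19.2%. The Ctcf TSS (chr8:108158963-108163196) ranked 5177.5 and 5976.5 in early-G1 and 3353, 9880.5 and 6755.5 in mid-G1, which overlap (change −0.13 ± 0.45; limma, adjusted p = 0.929). The degron acts on the protein, so this region does not check the labels. Pds5a, a cohesin regulator gene, ranked 1967 and 2193.5 against 4369.5, 4042 and 3921, and Esco1, a cohesin acetyltransferase gene, ranked 3080.5 and 2611 against 3033, 7551.5 and 6550.5.

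The remaining lists held 2 of the regions called lower. Their shares are read against all regions with a coding TSS, of which 15.0% ranked higher and 19.2% lower. Oxidative phosphorylation genes had 3 of 49 regions higher (6.12%) and 12 lower (24.5%, median −0.24), with Atp5g3 called lower, and p53 targets had 2 of 19 higher (10.5%) and 6 lower (31.6%, median −0.12), with Trp53inp1 called lower. Proteasome genes had 6 of 37 regions in each direction (16.2%, median 0.17). Among them Psmb4, which shares its region with Pogz, ranked 1547 and 688 against 306, 361 and 712. Psmd3 ranked 7983.5 and 8521 against 3275, 4983 and 3211. Nucleoporin and lamina genes had 3 of 30 higher and 7 lower (median −0.13), with Nup50 at 1172.5 and 1007.5 against 2412, 4149.5 and 2442.5. Banf1, which shares its region with Eif1ad, ranked 6640 and 5744 against 4033.5, 4200 and 1054. Myc network genes had 1 of 10 higher and none lower (median −0.015). Mlx, which shares its region with Psmc3ip, ranked 2719.5 and 3458 against 1659, 2514.5 and 1523.5. Mxd3 ranked 6536 and 5416 against 5779, 3738.5 and 3249.

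**Figure D5:**
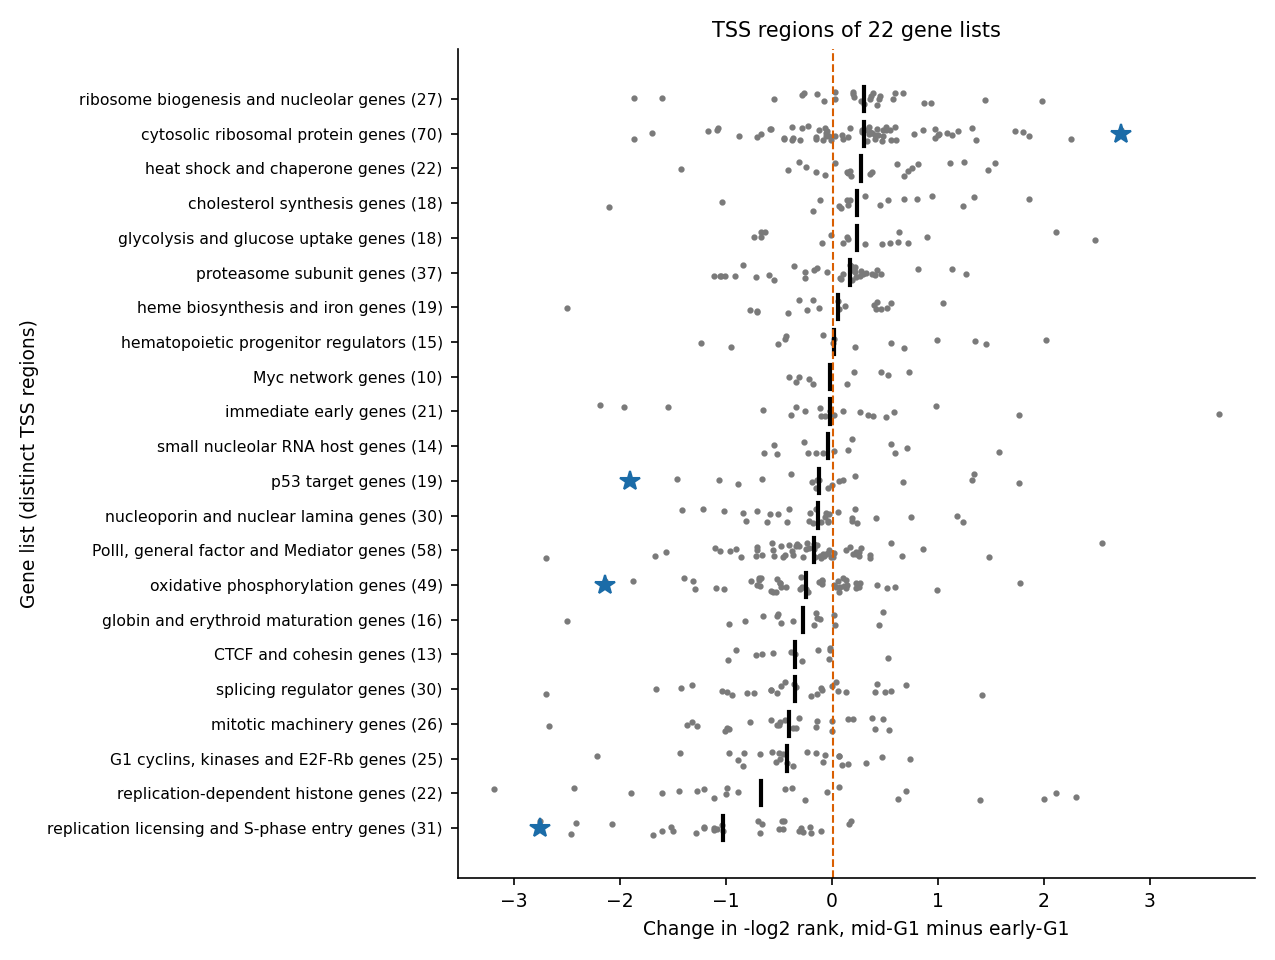
Change in −log2 rank from early-G1 to mid-G1 of each TSS region in the gene lists, with a point for each region, a star for each called region, a black line at each list's median and a dashed line at the median of all tested regions. The S-phase list has the lowest median, −1.02, and ribosome biogenesis genes the highest, 0.31.

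Promoter words were counted in regions that ranked lower and higher. The 300 bases around each summit were searched on both strands, over the regions with a coding TSS called by the 14-library fit. GCGGGAA, an E2F word added after seeing the data, lay in 43 of 183 called lower (23.5%) and in 6 of 114 called higher (5.26%), against 773 of all 8487 (9.11%). It overlapped a GGGCGG word in 5 of the 43. TATAAA lay in 13 of the 114 called higher (11.4%) and 8 of the 183 called lower (4.37%), against 5.48% of all. GGGCGG lay in 52.6% of those called higher and 59.0% of those called lower, against 56.7%, and the CTCF motif lay in 1.00% of all coding TSS regions. These are descriptions of letters and not of bound factors.

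Some of these words lie at genes named above, and are printed with the word in capitals, from mm9 along the strand of the gene. The first 4 are E2F words at genes that ranked lower in every mid-G1 library, and the last 3 are TATAAA words at genes that ranked higher in every mid-G1 library.
Mcm3, chr1:20810237-20810265, minus strand: gatgtggagctGCGGGAAgcgcagagaga
Cdc6, chr11:98769316-98769344, plus strand: gccggtggagaGCGGGAAatcgcctgggg
Gins2, chr8:123112975-123113003, minus strand: cccgcgcggtgGCGGGAAagaagtgcctg
Mcm5, chr8:77633450-77633478, plus strand: gaggctggtttTTCCCGCgaaagtcggct
Id1, chr2:152561947-152561974, plus strand: tggtctgccctTATAAAagactggctcc
Taf13, chr3:108374574-108374601, plus strand: cgtacgtatctTATAAAactcgccagcc
Rplp0, chr5:116009482-116009509, plus strand: cctggttctccTATAAAaggcacacgcg

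In the S-phase list the GCGGGAA word lay in 8 of 31 regions (25.8%), against 9.11% of all coding TSS regions. Over the other lists its share ran from 0% (small nucleolar RNA host regions) to 20%. The 20% was reached by hematopoietic progenitor, Myc network, and nucleoporin and lamina regions. Tyms (−2.75) and Cdc45 (−2.46), which fell most in the S-phase list, lacked the word. Cdc7 (−0.47) held it but overlapped between the stages. Gins2, a helicase component gene, ranked 3214.5 and 3824.5 in early-G1 and 10186, 9686 and 6290.5 in mid-G1, and Mcm5 ranked 987.5 and 1007.5 against 2472.5, 1899.5 and 1776.5. Rplp0, of the ribosomal stalk, ranked 324 and 483 against 110, 90.5 and 56.5. Gins2, Mcm5 and Rplp0 were chosen for their words after their values were seen.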

How the data were processed

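PolII ChIP-seq was analysed in 2 early-G1 and 3 mid-G1 control libraries, grouped by the sample titles. The labels do not say that replicates came from separate cultures, so p-values measure the spread between these libraries, which may be technical. Per the study's methods and the submitters' processing notes, reads were aligned to mm9 with Bowtie2 2.2.9 in local mode, filtered with SAMtools 0.1.19 and bedtools 2.27.1 for mapping quality, duplicates, chrM, random and blacklisted sequence, and peaks were called for each library with MACS2 2.1.0 against the input of the same stage. The deposited lists hold, as the authors' caller made them, the fold enrichment over local background (a linear ratio). They also hold −log10 p and −log10 q values from the authors' caller, used for the depth estimate and alternatives, and an integer score deposited by the authors that was not used. No read counts were used here, so precision is limited by 5 libraries and by peak calling depth.

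Peaks were merged at an overlap of at least 1 bp. Depth was recovered by solving fold enrichment and p-value for the pileup, which came out whole within 0.05 for the peaks of each list, scaled by the width of its narrowest peak. Annotation was GENCODE M1 on NCBIM37, which is mm9. −log2 ranks were compared with limma 3.58.1 in R 4.3.3, with Benjamini-Hochberg adjustment at 0.05, and list measures with exact permutation tests, in Python 3.11.15 with numpy 2.4.6, pandas 2.3.3 and scipy 1.17.1; samtools 1.23.1 read the genome. The rank fit was tested on simulated data.

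The members, gene lists and tests were chosen with earlier results of these data known. Named were all called regions that did not overlap between stages (up to 12 for each direction), the 3 best-ranked stage-only regions for each stage, the called members of each list or otherwise the 2 with the largest changes, Ctcf, and the 3 long genes with the largest gain and the 3 with the largest loss. A gene with several TSS regions entered its list by the best-ranked of them. Sequences were read from the mm9 genome. A few items that the rule names are not reported here. Alternatives were other rank scales, thresholds, merging distances, equal list sizes, a replicate block, more libraries and leaving out each library.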

Additional observations from a re-analysis of the deposited data

Results flagged for a closer look

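A single region had a stage difference that itself differed between control and auxin-treated cells in limma (1 of 17668 regions). It is an intronic region of the nucleoporin gene Nup50 (chr15:84754522-84755995), 643 bp from the TSS. In control cells it ranked 16364 and 14272 in early-G1 and 17619, 19078 and 17924 in mid-G1. In auxin-treated cells it ranked 1187.5 and 981 in early-G1 and 14870, 16646 and 17296 in mid-G1. The difference of the stage changes, auxin-treated minus control, was −3.69 ± 0.22 (SE; limma interaction, adjusted p = 0.000631). In both auxin-treated early-G1 libraries the peak that overlapped this region was 2984 and 3209 bp wide, reached the Nup50 TSS and carried a fold enrichment of 42.1 and 42.8. In the 5 control libraries the overlapping peaks were 184 to 1388 bp wide, did not reach the TSS and had fold enrichments of at most 7.66. A peak that reached the TSS was also found in late-G1 auxin-treated replicate 2 (2047 bp, fold enrichment 24.6). The part of peak joining in the interaction was not tested.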

How the results depend on the processing

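Counts of called regions (9 higher and 11 lower in limma) changed most with the processing. They were 42 and 63 with a mean-variance trend, 79 and 31 on median-centred log2 fold enrichment and 193 and 263 with all 14 post-mitotic libraries. They were 0 and 0 with ranks turned into normal scores (unadjusted p under 0.05 at 1481 and 1165 regions), with ranks by −log10 p (1173 and 1348), with peaks within 1 kb merged (918 and 1068) and with only peaks of −log10 q of at least 5 (1144 and 1319). Leaving out 1 library gave 0 to 30 higher and 0 to 19 lower. Replicate numbers were not shown to pair libraries, since same-numbered libraries deviated together by correlations of −0.0368 and 0.0452; a fit with the replicate number as a block called 225 and 226.

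Detection moved too. Early-G1-only regions numbered 2650 with peaks within 1 kb merged, 3927 with equal numbers of strongest peaks and 11079 to 33941 without 1 library. Mid-G1-only regions numbered 268 with 1 kb merging, 221 where peaks had to cover at least 0.5 of the region and 858 to 3628 without 1 library. The TSS share difference reversed to −1.40 with equal numbers of strongest peaks, and the Jaccard difference ran from −0.0222 to 0.0993 without 1 library, below 0 without either early-G1 library. The log2 stage difference of the distal to proximal ratio was 0.40 (exact permutation p = 0.01) with auxin-treated libraries added. The causes were not tested. Early-G1-only regions outnumbered mid-G1-only regions in each setting named here.

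Among single regions, the change reversed to −0.046 at Psmb4 with ranks by −log10 p, and to −0.98 at Lyl1 and −0.27 at Mxd3 with 1 kb merging. Without 1 library it ran from −2.25 to 0.14 at Atp5g3, from −0.39 to 0.95 at Mlx and from −0.57 to 0.22 at Ctcf. Regions are redrawn from the remaining lists in those settings. Of the other values for single regions, 496 kept direction and side of the threshold, 163 kept direction but were no longer past it (at Rpl23 the change shrank from 2.53 to 0.011 with 1 kb merging and at Mybl2 from −2.92 to −0.38 without early-G1 replicate 2) and 49 newly passed it. Depth limits what absence of a peak means: a region without one may hold PolII signal.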

Other observations

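Late-G1 control libraries, 240 min after release, were not part of the comparison and place the same regions at a later time. At all 9 regions that rose, the late-G1 mean rank lay between the early-G1 and mid-G1 means, with median mean ranks of 2220, 251 and 395 in early-G1, mid-G1 and late-G1, and 2 lay nearer to early-G1. Of the 11 that fell, 9 lay between and 9 lay nearer to early-G1, with medians of 930 (early-G1), 5648 (mid-G1) and 1971 (late-G1). Tsg101 (772.5 and 179 in late-G1) and Tyms (1348.5 and 1258) were among those nearer to early-G1, while the Zfp217 region (6025 and 7778) remained close to mid-G1. The larger sets called by the 14-library fit differed from this. Only 94 of the 263 regions called lower there were nearer to early-G1, and 189 lay between. Their median mean ranks were 2214 (early-G1), 6398 (mid-G1) and 4231.5 (late-G1). Among the 193 called higher, 75 were nearer to early-G1 and 155 lay between. These regions were chosen with the mid-G1 libraries, so a return towards early-G1 is in part built into the choice, and the values are a description with no test.

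Promoter words were also counted in each gene list, as a description over few regions. TATAAA lay in 7 of 14 small nucleolar RNA host regions (50%), 7 of 21 immediate early regions (33.3%) and 4 of 22 histone regions (18.2%), against 5.48% of all coding TSS regions. CACGTG lay in 8 of 27 ribosome biogenesis regions (29.6%), against 9.08%. TTTGAA, the core of the CHR element and added after seeing the data, lay in 8 of 26 mitotic machinery (30.8%), 4 of 13 CTCF and cohesin (30.8%), 6 of 22 histone (27.3%) and 4 of 16 globin and erythroid maturation regions (25%), against 9.53%, so its share was not particular to the mitotic list.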
